A study of Mus musculus with 25 samples.

Results

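The Mycn locus is described here through its chromatin contacts: the 10 kb bin chr12:12940001-12950000 (mouse build mm10), which the authors' gene columns assign to Mycn, and the bin on either side of it. Every pair of bins that touched this 3-bin window was taken from the 9 deposited interaction lists, which gave 152 of 912901 listed pairs, or 60 different pairs once repeats between lists were merged. The gene was chosen by how its numbers of listed H3K27ac pairs differed between fibroblasts and embryonic stem cells and between the TKO libraries at 0 h and 24 h, so those differences are described without a test. Mycn runs from 12936093 to 12941836 on the minus strand. Its start therefore lies in the central bin, called the promoter bin here, most of the gene lies in the bin at 12930001-12940000, called the gene-body bin, and the bin at 12950001-12960000 is called the upstream bin.

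Mycn is a basic helix-loop-helix transcription factor of the Myc family, which binds DNA as a heterodimer with Max and drives genes of growth and ribosome production. It is expressed in embryonic stem cells and in neural progenitors, while Myc itself is the better known member in fibroblasts. Enhancers reach promoters by looping of the chromatin between them, and H3K27ac, an acetylation of histone H3, marks promoters and enhancers in their active state. KLF4 is a zinc-finger factor of the pluripotent state and the K of the reprogramming cassette OKSM.

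The study followed fibroblasts on their way to pluripotency with HiChIP, which ligates DNA ends that lie close together and precipitates them with an antibody, and with Hi-C, which ligates without an antibody. Mouse embryonic fibroblasts (MEF) came from E13.5 embryos that carried 1 copy each of an Oct4-GFP reporter, the OKSM cassette and rtTA3, the protein that lets doxycycline switch the cassette on. H3K27ac HiChIP covered MEF at passage 3 (2 libraries), V6.5 embryonic stem (ES) cells in 2i medium (2 libraries), and the V6.5 line labelled TKO, also in 2i, without doxycycline (0 h, 3 libraries) and after 24 h of it (3 libraries). KLF4 HiChIP covered the same kind of MEF at day 3 of doxycycline with ascorbic acid (bulk cells, 3 libraries) and at day 6 (cells sorted for SSEA1, 4 libraries), and V6.5 ES cells in 2i (4 libraries), and Hi-C covered MEF at passage 3 and V6.5 ES cells in 2i (2 libraries each). The labels do not spell out TKO or say whether the V6.5 cells were 1 clone, and the 24 h libraries differ from the 0 h libraries in doxycycline itself as well as in what it switches. The labels call libraries replicates without saying that they came from separate cultures, so their spread may be technical.

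The 21 HiChIP libraries held 48.7 M to 181 M contacts each (M for mega), of which 2.14 M to 8.11 M lay on chromosome 12, and a pair entered an H3K27ac list only above a CPM of 3 in every library, which stands for 9.07 to 21.8 contacts on that chromosome across the H3K27ac libraries. CPM is the count of a pair scaled to the contacts of its chromosome. Libraries 1 and 3 of TKO 24 h, libraries 1 and 2 of KLF4 in ES, and libraries 3 and 4 of KLF4 in ES did not differ beyond the sampling noise and were each counted as 1 sample, so that both groups had n = 2. As a check of the labels, the bins of 4 fibroblast genes with a bin of 5 looked up (Thy1, Col1a1, Vim and Pdgfrb) summed to 32 H3K27ac pairs in MEF, 1 in ES, 6 in TKO 0 h and 4 in TKO 24 h. The bins of 4 pluripotency genes with a bin of 6 looked up (Nanog, Pou5f1, Zfp42 and Sall4) summed to 1, 71, 59 and 57 pairs in the same order. In Hi-C, which does not read a mark, the fibroblast genes had 20 pairs in MEF and 26 in ES, so their Hi-C numbers do not follow the labels, and the pluripotency genes had 3 and 13.

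The sequence around the Mycn start is shown because it lies in the promoter bin, to which a peak of H3K27ac was assigned by the authors at both 0 h and 24 h of TKO. It covers 250 bases before and 50 bases after the gene start (RefSeq, GRCm38.p6, chr12:12941787-12942086, minus strand, read 5′ to 3′). The capitals mark matches to an E2F-type motif (TTTGGCGC, 2 matches) and a KLF-type motif (GGGTGTG, 1 match).
Mycn promoter: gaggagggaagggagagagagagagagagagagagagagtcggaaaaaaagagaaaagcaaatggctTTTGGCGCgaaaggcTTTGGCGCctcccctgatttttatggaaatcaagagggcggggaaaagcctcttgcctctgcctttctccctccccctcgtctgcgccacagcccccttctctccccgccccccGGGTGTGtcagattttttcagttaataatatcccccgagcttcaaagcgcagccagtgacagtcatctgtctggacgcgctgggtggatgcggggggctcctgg

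The E2F-type matches cover bases 68 to 75 and 83 to 90 of this stretch and the KLF-type match bases 197 to 203, both motifs having been searched on both strands. Of 32851 RefSeq promoters of the same length, 0.514% held the E2F-type motif and 7.95% the KLF-type motif. The GC box GGGCGGG, the site of Sp-type factors, matched 2 times and was present in 25.6% of promoters, and the E-box CACGTG, the site that Myc-Max dimers prefer, did not match and was present in 7.15%. None of these matches overlaps another. A match describes the letters and does not show binding.

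In H3K27ac HiChIP the Mycn window had no listed pair in MEF and 42 in ES, 37 in TKO 0 h and 26 in TKO 24 h. The KLF4 lists held 1 pair at day 3, none at day 6 and 16 in ES, and the Hi-C lists held 4 in MEF and 26 in ES. The ES Hi-C list was also the longer as a whole, with 318622 pairs against 228083 in MEF. On chromosome 12 it held 16308 against 10351. The promoter bin alone had 23 pairs in ES, 16 in TKO 0 h and 9 in TKO 24 h, against 18, 21 and 17 for the gene-body bin, while the upstream bin had 3, 1 and 1. Mycn contacts were thus listed in every pluripotent group, and in the fibroblast groups by Hi-C and by the day 3 KLF4 list alone. A pair missing from a list may have any strength below the authors' filters, and the day 6 list is short as a whole, with 4047 pairs. At the Mycn pairs the deposited column named FDR was the deposited p-value times 1 constant, capped at 1. It is therefore stricter than a false discovery rate, and a high value does not mean that a pair is probably false. A minority of the listed H3K27ac pairs had a deposited FDR under 10%. These were 10 of 42 in ES, 9 of 37 in TKO 0 h and 6 of 26 in TKO 24 h. For KLF4 in ES they were 2 of 16, and for Hi-C 3 of 4 in MEF and 5 of 26 in ES.

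**Figure D1:**
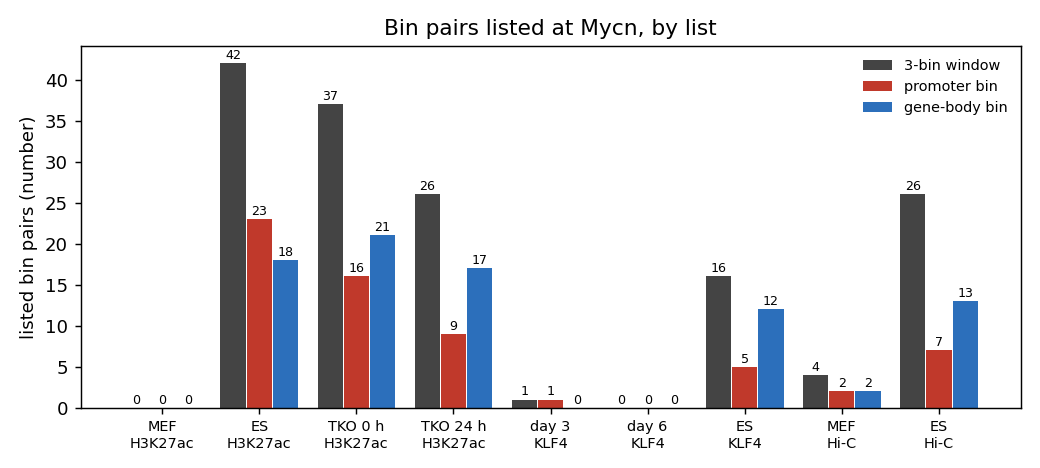
Number of listed bin pairs (y axis) at Mycn in each of the 9 lists (x axis), for the 3-bin window, the promoter bin alone and the gene-body bin alone; each bar is 1 list, so there is no error bar. The window stands at 42, 37 and 26 pairs in the ES, TKO 0 h and TKO 24 h H3K27ac lists and at 0 in the MEF list.

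Few bins of the ES H3K27ac list had as many pairs as the Mycn promoter bin: 131 of 40136 bins (0.326%) had 23 or more, and on chromosome 12 there were 8 of 1851 (0.432%). Of those 131 bins, 27 (20.6%) had no pair in the MEF list, as Mycn had none. Just outside the window, the bin at 12920001 had 16 pairs in ES and 0 in MEF and the bin at 12960001 had 3 and 0. The whole 620 kb stretch that holds all Mycn partners (12410001-13030000) had 1 H3K27ac pair with both ends inside it in MEF and 154 in ES, so the absence in MEF covered the region and not Mycn alone. Hi-C listed 84 pairs inside that stretch in MEF and 185 in ES, where the whole list was also longer.

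The partners of Mycn lay mostly on the downstream side of the gene. In ES, 33 of the 42 H3K27ac pairs reached downstream, 7 upstream and 2 joined bins of the window, and in TKO 0 h the numbers were 32, 4 and 1. These pairs were long: the median distance, start to start of the bins, was 95 kb in ES with the farthest at 260 kb, and 110 kb in TKO 0 h with the farthest at 230 kb. Of these pairs 50% in ES and 56.8% in TKO 0 h spanned at least 100 kb, against 8.39% and 8.53% of the whole lists. A bin with many pairs must reach far, since few bins lie within 100 kb of it. The contrast is therefore partly set by the choice of a gene with many pairs, and it was not tested. In TKO 24 h the median was 90 kb and the farthest pair 180 kb. The far partners at 12680001 in ES (CPM 3.47 and 3.17) and 12710001 in TKO 0 h (4.12, 4.51 and 3.10 to the promoter bin) sat close to the filter.

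In the authors' columns for TKO cells, 13 of 24 partner bins outside the window carried an H3K27ac peak in ES, 13 of 22 in TKO 0 h and 11 of 18 in TKO 24 h. Of all bins on chromosome 12 in these lists, 50.5%, 51.5% and 51.8% carried one, so the Mycn partners were near the usual share. For KLF4 in ES a peak was present in 10 of 13 partner bins, against 48.6%, and for Hi-C in ES in 8 of 17, against 20.7%. Peaks are known only for bins in a TKO list, and all other bins counted as without one, among them 3 of the 17. The 20.7% is over 5074 bins, where the TKO 0 h list holds 2129, so bins without an entry lower it. As the gene was chosen by its H3K27ac numbers, these contrasts are not independent of that choice. The same partner bins were marked at 0 h and 24 h. The authors' columns named genes in 2 partner bins. One is Platr19, a long noncoding RNA named for its association with pluripotency, in the bin 12780001-12790000. The other is 4930519A11Rik, an unnamed RIKEN transcript, in the bin 12900001-12910000. RefSeq places 1 further long noncoding RNA, Gm35155, between them at 12828050-12829248, and lists no other protein-coding gene than Mycn in the 620 kb stretch.

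**Figure D2:**
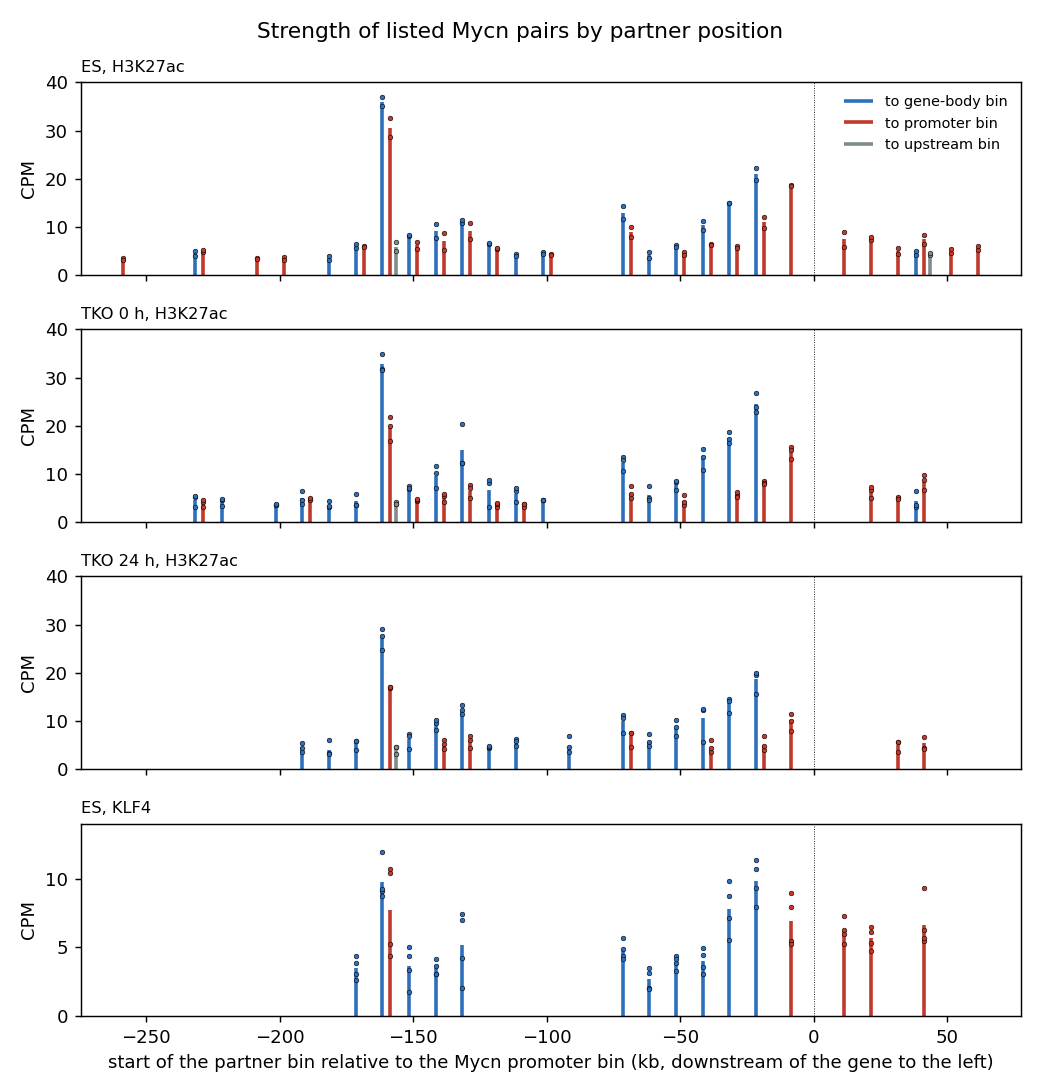
Strength of each listed Mycn pair (CPM, y axis) against the start of the partner bin relative to the promoter bin (kb, x axis, downstream of the gene to the left) in the 4 HiChIP lists with many pairs; bars are means over samples, points are single libraries, and colours give the Mycn bin. The Platr19 bin at 160 kb downstream stands highest among the distal partners in all 4 panels.

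In HiChIP the Platr19 bin was the strongest partner of Mycn at 100 kb or more, by mean CPM, in the 4 lists that hold it. In the 2 ES H3K27ac libraries its pair with the gene-body bin, 150 kb apart, had a CPM of 35.0 and 37.0 (252 and 269 contacts; mean 36.0 ± 1.43, SD, n = 2). Its pair with the promoter bin, 160 kb apart, had 32.5 and 28.6 (234 and 208 contacts; mean 30.6 ± 2.74, SD, n = 2). These were 84.8 and 75.5 times the count expected for their distance in the authors' distance-normalised values. Among the 330 chromosome 12 pairs of at least 100 kb in this list, ranked by mean CPM, they were the 1st and 2nd. The pair with the upstream bin was much lower, at 6.81 and 4.96.

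In TKO 0 h the Platr19 pair with the gene-body bin stood at 31.8, 35.0 and 31.5 CPM (mean 32.8 ± 1.93, SD, n = 3), and the pair with the promoter bin at 19.999, 21.7 and 16.9 (mean 19.5 ± 2.45, SD, n = 3). In TKO 24 h the gene-body pair stood at 29.1, 27.5 and 24.8 (mean 27.2 ± 0.426, SD, n = 2) and the promoter pair at 16.9, 17.1 and 17.0 (mean 17.0 ± 0.126, SD, n = 2). For the gene-body pair the joined libraries 1 and 3 were the highest and the lowest. Its SD therefore leaves out their spread and is not comparable with that at 0 h. Every 24 h library lay below every 0 h library for the gene-body pair, while the libraries of the promoter pair overlapped. The gene-body pair ranked 1st among chromosome 12 pairs of at least 100 kb at both times (of 406 and 284), and the promoter pair ranked 5th and 4th. The promoter pair was thus below both ES libraries in all 6 TKO libraries, and for the gene-body pair the highest TKO 0 h library and the lower ES library both rounded to 35.0.

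KLF4 HiChIP in ES gave the same leading distal partner. The 4 libraries had a CPM of 9.08, 8.74, 9.22 and 11.9 for the Platr19 pair with the gene-body bin and 4.41, 5.25, 10.7 and 10.4 for that with the promoter bin. Libraries 1 and 2 were low and libraries 3 and 4 high for the promoter pair, the same split as between the joined libraries, and its mean of 7.69 ± 4.04 (SD, n = 2) is accordingly loose. Both pairs led the 51 KLF4 pairs of at least 100 kb on chromosome 12, at ranks 1 and 2. The Platr19 bin had 2 KLF4 pairs with any partner at day 3 and none at day 6, and none of them reached Mycn.

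Hi-C in ES listed the Platr19 pair with the gene-body bin at a signal of 19.3 and 29.3 (15 and 27 contacts) and ranked it 210th of 2564 chromosome 12 pairs of at least 100 kb. The signal is the authors' normalised Hi-C value, whose scale is not that of the HiChIP CPM. Its 4.44-fold excess over the distance expectation was below that of the neighbouring bin at 12770001 with the gene-body bin (signal 25.7 and 28.2; 5.16-fold) and the promoter bin (4.79-fold). The Platr19 pair with the promoter bin was not in the ES Hi-C list.

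**Figure D3:**
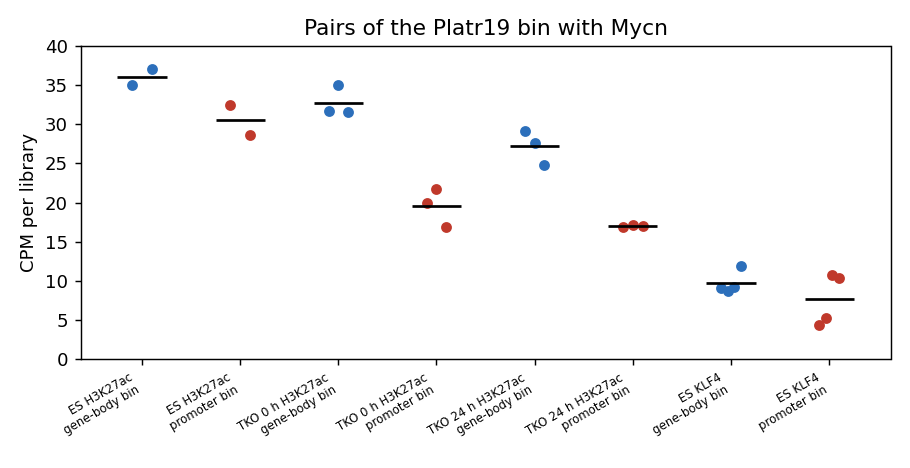
CPM (y axis) of the pairs of the Platr19 bin with the Mycn gene-body and promoter bins in the 4 HiChIP lists that hold them (x axis); points are libraries and bars the mean over samples after libraries that did not differ beyond sampling noise were joined. In TKO the gene-body pair stays above the promoter pair in all 6 libraries.

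Nearer partners of Mycn were strong too. The pair of the bin at 12920001 with the gene-body bin had a CPM of 19.7 and 22.3 in ES and of 22.9, 23.9 and 26.8 in TKO 0 h, and was 6.66 and 6.06 times its distance expectation. The gene-body bin and the promoter bin were themselves paired, at 18.6 and 18.4 in ES and 13.2, 15.6 and 14.9 in TKO 0 h. The 4930519A11Rik bin paired with the gene-body bin at a mean of 13.1 in TKO 0 h and 10.6 in TKO 24 h, where its libraries were 5.62, 12.2 and 12.5. On the upstream side, the pair of the promoter bin with 12980001 had a CPM of 6.39 and 8.397 in ES and of 6.60, 9.81 and 8.73 in TKO 0 h.

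The number of Mycn pairs fell by 11 from TKO 0 h to TKO 24 h. Of the 37 pairs at 0 h, 24 were also listed at 24 h and 13 (35.1%) were not, and 2 of the 26 pairs at 24 h were listed there alone, against 20.5% of 24 h pairs on chromosome 12. Over chromosome 12, 26.1% of 0 h pairs were not listed at 24 h, and over the genome 27.4%. The change was uneven within the locus: the promoter bin had 8 of 16 pairs no longer listed (50%) and the gene-body bin 5 of 20 (25%), counting the pair that joins both bins with the promoter bin. Among the 716 bins with 16 or more pairs at 0 h, 82 (11.5%) had a net fall at least as large as that of the Mycn promoter bin (7, from 16 to 9), and on chromosome 12 there were 4 of 37 (10.8%). The chance of a difference between these shares was not tested, since the fall chose the gene.

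Pairs no longer listed were among the weaker ones. Their mean CPM at 0 h ran from 3.52 to 6.32 with a median of 4.46, against 3.63 to 32.8 with a median of 7.47 for pairs listed at both times. Where the lowest 0 h library was under a CPM of 4, 8 of 13 Mycn pairs were not listed at 24 h (61.5%, against 56.4% on chromosome 12), and where it was at 4 or more, 5 of 24 (20.8%, against 14.8%). The strongest pair to leave the list joined the promoter bin with the bin at 12960001 upstream, at 6.60, 5.04 and 7.32 in the 0 h libraries. Of the pairs whose partner bin had an H3K27ac peak, 7 of 25 (28%) were not listed at 24 h, and of those whose partner had none, 6 of 12 (50%). On chromosome 12 the shares were 20.1% for pairs with a peak in both bins and 32.6% for pairs with a peak in 1 bin, the same order as at Mycn, and these classes hold all 4092 pairs of the 0 h list there. The Mycn classes look at the partner bin alone. They place the pair of the upstream bin with the Platr19 bin differently, since the upstream bin carried no peak. The farthest partner bin at 0 h, 12710001, lost its pairs with both the promoter and the gene-body bin.

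Of the 24 Mycn pairs listed at both times, 17 had a lower mean CPM at 24 h, against 63.5% of pairs on chromosome 12 and 64.7% over the genome. Their median log2 ratio of CPM, 24 h over 0 h, was -0.15 (range -0.73 to 0.32), where the median on chromosome 12 was -0.09 and over the genome -0.10. With all libraries kept separate the Mycn median was -0.19. The chromosome 12 and genome medians are those with libraries joined. In 5 of the 24 pairs every 24 h library lay below every 0 h library, against 15.6% of chromosome 12 pairs. In none did every one lie above. Apart from the Platr19 pair with the gene-body bin, these 5 were all within 20 kb.

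The largest difference among them was in the pair of the promoter bin with 12920001, at 8.45, 8.22 and 7.88 CPM at 0 h and 6.95, 3.999 and 4.73 at 24 h, a log2 ratio of -0.73. The pair of the gene-body bin with the promoter bin went from 13.2, 15.6 and 14.9 to 7.94, 11.6 and 10.02 (log2 ratio -0.51). The pair of the gene-body bin with 12920001 went from 22.9, 23.9 and 26.8 to 15.5, 19.6 and 20.05 (-0.39). In each of these the lowest 0 h library and the highest 24 h library remained apart. The pair of the gene-body bin with 12910001 was the fifth, at a mean of 17.4 before and 13.8 after (-0.34). Of the pairs with partners between 12750001 and 12800001 listed at both times, all but the Platr19 pair with the gene-body bin overlapped in their libraries.

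**Figure D4:**
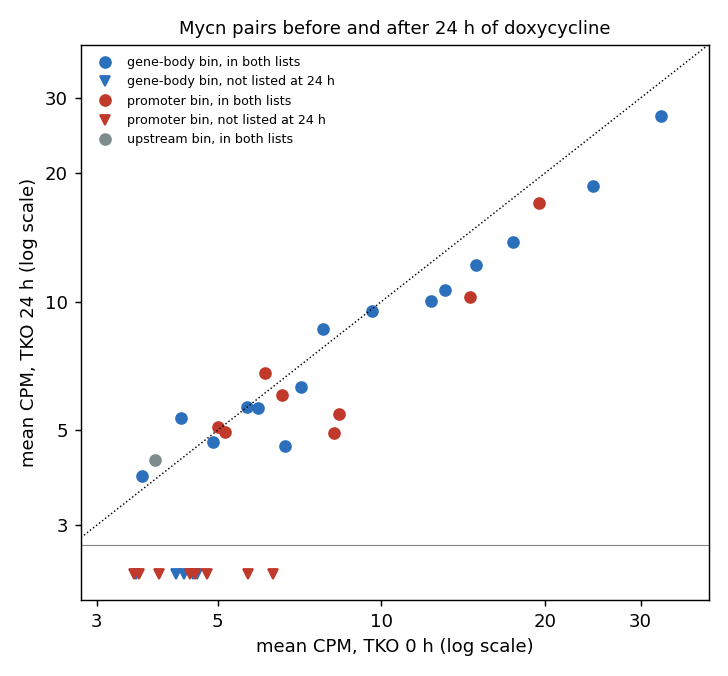
Mean CPM of each Mycn pair at TKO 0 h (x axis, log scale) against TKO 24 h (y axis, log scale), coloured by Mycn bin; triangles below the line are the 13 pairs not listed at 24 h and the dotted diagonal marks equal CPM. Of the 24 pairs in both lists, 17 lie below the diagonal and the others above it, by a log2 ratio of up to 0.32. The triangles lie at 0 h CPM of 3.52 to 6.32.

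ES cells and TKO cells without doxycycline shared 32 Mycn pairs, with 10 in ES alone and 5 in TKO 0 h alone. The shared ones were 76.2% of the 42 ES pairs, close to the 76.9% of ES pairs on chromosome 12 that TKO 0 h shared, while 24 (57.1%) were also in the TKO 24 h list, against 72.1%. The share at 24 h is tied to the fall that chose the gene. The ES and TKO 0 h numbers also entered that choice, so the contrast of their strengths is not independent of it. ES and TKO cells are both labelled V6.5 in 2i. Pairs on chromosome 12 in both lists had a median log2 ratio of CPM, TKO 0 h over ES, of 0.29, and 23.5% were lower in TKO. The Mycn pairs had a median of -0.06 (range -0.65 to 0.49), 18 of 32 were lower in TKO, and in 11 every TKO library lay below every ES library, against 7.86% on chromosome 12. In 4, all of them gene-body-bin pairs, every TKO library lay above every ES library, against 45.6%. The 14 promoter-bin pairs had a median of -0.40 and 11 of them were lower in TKO, 8 with no overlap of libraries. The 17 gene-body-bin pairs had a median of 0.04, and 6 were lower in TKO, 2 with no overlap of libraries. The difference between the bins was not tested. The promoter-bin median was -0.24 without ES library 2, and the gene-body-bin median moved to 0.22 without it.

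The KLF4 pairs of Mycn in ES were a subset of its H3K27ac pairs there. All 16 KLF4 pairs in ES were among the 42 H3K27ac pairs of ES (38.1% of those), where 71.0% of KLF4 pairs on chromosome 12 were, and 15 of the 16 were in the TKO 0 h list (93.8%, against 72.7%). The numbers in these H3K27ac lists chose the gene, so a high overlap here is not independent of that choice. KLF4 pairs went mainly to the gene-body bin, with 12 pairs there and 5 at the promoter bin. The strongest KLF4 pair of Mycn was the short one between 12920001 and the gene-body bin (9.34, 11.4, 10.7 and 7.96 CPM), just ahead of the Platr19 pair. The promoter bin's KLF4 partners other than Platr19 were all within 40 kb.

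At day 3 of reprogramming the only KLF4 pair of Mycn joined the promoter bin with the bin 12420001-12430000, 520 kb downstream. It had a CPM of 4.90, 3.12 and 2.96 (12, 19 and 24 contacts; mean 3.66 ± 1.07, SD, n = 3), 34.1 times its distance expectation, and its deposited FDR in the authors' deposited table was 1. The same pair was 1 of the 4 Hi-C pairs of Mycn in MEF, where 6.71% of MEF Hi-C pairs on chromosome 12 were in the day 3 KLF4 list, with a Hi-C signal of 15.4 and 24.5 (11 and 18 contacts). The partner bin holds the start of Gm34489, a RefSeq long noncoding RNA at 12421041-12524489. No pair of this bin with Mycn was listed in ES by any assay, nor in TKO. With no Mycn pair in both the day 3 and the ES KLF4 list, or the day 3 and day 6 lists, no pair could be compared by strength in KLF4.

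Hi-C, which does not select on a mark, showed different partners in the 2 cell types. In MEF, 3 of the 4 Mycn pairs joined it to the adjoining bins at 12410001 and 12420001, 510 to 530 kb away, at 14.5 to 16.2 times the expectation for that distance. Their deposited FDR in the authors' deposited table was at most 1.5e-10. Each rests on few contacts, 11 to 21 per library. The fourth joined the gene-body bin with 12920001, 10 kb away.

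In ES the 26 Hi-C pairs spanned 10 to 300 kb with a median of 100 kb, and none reached the bins at 12410001 or 12420001. Those with the highest excess over expectation joined the gene-body bin with 12770001 (signal 25.7 and 28.2; 5.16-fold), and the promoter bin with 12640001, 300 kb away (16.7 and 15.2; 5.13-fold). The highest signal was that of the gene-body bin with 12910001, at 55.2 and 57.5. In the authors' deposited table the column named FDR, the p-value times 1 constant, was 3.4e-05 for the pair of the gene-body bin with 12770001. It was 0.458 for the pair with 12640001 and 0.633 for the pair with 12910001. The upstream bin had 6 Hi-C pairs in ES, including partners at 13010001 and 13020001 on the upstream side. Of the 4 MEF pairs, 1 (25%) was also in the ES list, where 58.9% of MEF pairs on chromosome 12 were. Of the 26 ES pairs, 14 (53.8%) were H3K27ac pairs of ES, where 12.0% of Hi-C pairs on chromosome 12 were, and 8 (30.8%) were KLF4 pairs, against 5.75%. As the gene was chosen by its H3K27ac numbers, the overlap with the H3K27ac list is not independent of that choice. The same holds for the overlap with the KLF4 list, since all KLF4 pairs of Mycn in ES were H3K27ac pairs there.

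**Figure D5:**
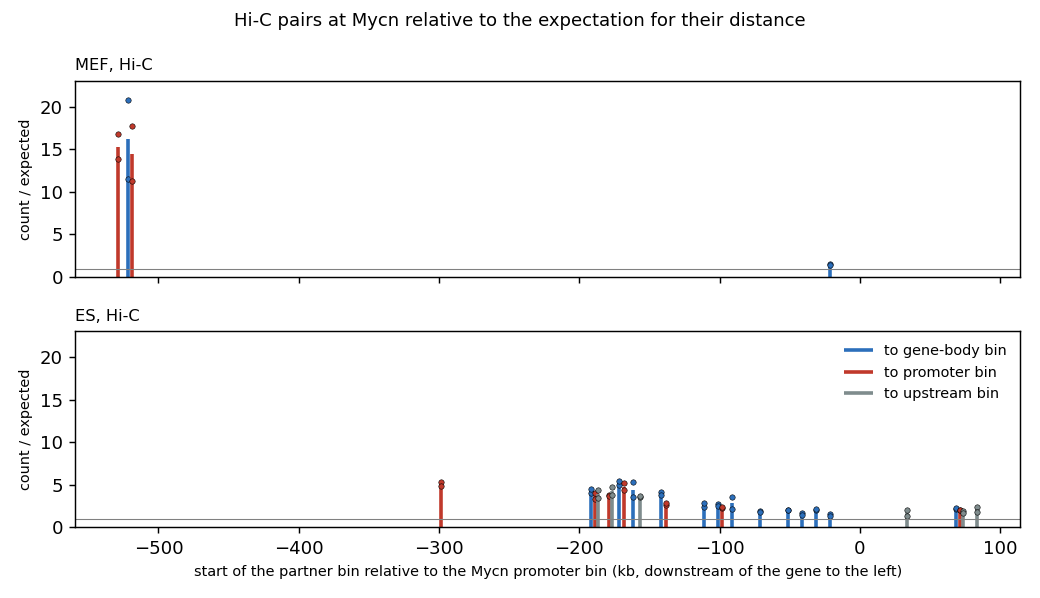
Hi-C pairs of Mycn in MEF and ES: count over the expectation for the distance (y axis; the grey line is at 1) against the start of the partner bin relative to the promoter bin (kb, x axis, downstream of the gene to the left), with bars for the mean and points for the 2 libraries. In MEF 3 pairs stand at 14.5 to 16.2 at distances of 510 to 530 kb, and in ES the pairs stay at 5.16 or less.

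The single Mycn pair in both Hi-C lists allowed a test. The pair of the gene-body bin with 12920001 had 36 and 33 contacts in MEF (signal 50.4 and 44.9) and 37 and 40 in ES (47.5 and 43.4). The libraries overlapped. The log2 ratio of ES over MEF was -0.23 (SE 0.25), with an adjusted p of 0.999 in edgeR's quasi-likelihood test over 124204 pairs in both lists, of which 40 (0.0322%) passed the threshold of 0.05. At an unadjusted p under 0.05 there were 7542 such pairs, and DESeq2 called 0 with 669 at an unadjusted p under 0.05. No difference was detected at this pair.

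The domains that the authors called from Hi-C placed Mycn near an upstream edge in both cell types. In MEF its domain ran from 12160001 to 12960000 (800 kb), so that it ended 10 kb beyond the promoter bin. In ES it ran from 10600001 to 13000000 (2400 kb) and ended 50 kb beyond it. Each cell type has 1 domain list with no replicate values. Of the H3K27ac pairs of Mycn, 7 in ES, 4 in TKO 0 h and 2 in TKO 24 h crossed the ends of the MEF domain, and 1 in ES crossed those of the ES domain. In Hi-C of ES, 5 pairs crossed the MEF ends and 4 the ES ends, and no MEF pair crossed the MEF ends.

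Genes whose promoter bins had numbers of pairs most like those of Mycn were ranked by the Euclidean distance of log2(number + 1) over the 9 lists, among 12695 genes with a bin, leaving out genes within 1 Mb. The nearest were Agtrap (distance 0.86), Lncenc1 (1.17), Tdh (1.32), Kdm3b (1.37) and Epb41l4a (1.40), where the median gene stood at 4.84. Agtrap, which encodes an angiotensin receptor-associated protein, had 0 H3K27ac pairs in MEF, 21 in ES, 15 in TKO 0 h and 11 in TKO 24 h. Lncenc1, a long noncoding RNA of embryonic stem cells, had 0, 19, 13 and 10. Tdh, the threonine dehydrogenase that mouse embryonic stem cells depend on, had 0, 13, 11 and 10. With 5 added in place of 1, 4 of the 5 names were the same, and Tdh was not among them.

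Other genes of the Myc network were looked up with the same count, and 19 of 23 had a bin (Mxd1, Mycbp, Mycbp2 and Ruvbl1 had none). A gene has a bin only where a TKO list names it, so genes with pairs in MEF alone are left out. This favours more pairs in ES in each comparison with ES below, for the network and for all genes with a bin. Between the H3K27ac lists of MEF and ES, 15 of the 19 had more pairs in ES, 2 fewer and 2 as many, with a median log2 ratio of 1.00, while over all genes 65.4% had more, 14.7% fewer and the median was 1.00. Max, the partner of Mycn in DNA binding, had 0 pairs in MEF and 15 in ES. Myc had 6 in MEF and 2 in ES, and Mycl, the remaining Myc paralog, 1 and 3. Mxi1, which competes for Max, had 7 and 13, and Kat5, the catalytic subunit of the Tip60 acetyltransferase that Myc recruits, had 13 and 29.

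From TKO 0 h to 24 h, 9 network genes had more pairs, 9 fewer and 1 as many, with a median log2 ratio of 0, while over all genes 23.8% had more and 48.4% fewer. Max went from 17 to 15, Myc from 0 to 1 and Mycl from 4 to 3. Between day 3 and ES in KLF4, 10 had more (52.6%), 3 fewer (15.8%) and 6 as many (median 0.26, against 0 over all genes). Over all genes 39.2% had more and 16.3% fewer. In Hi-C, 16 had more pairs in ES than in MEF (84.2%, against 73.5% of all genes), 1 fewer (5.26%, against 11.7%) and 2 as many. The median was 0.81 against 0.74 over all genes, an order that turned with a pseudocount of 5 (0.36 against 0.42). The list was put together with earlier results of these data known, and its counts are set beside those of all genes as a description.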

How the data were processed

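Contacts at Mycn were read from 9 lists of 10 kb bin pairs, 1 per group, covering 25 libraries. Bowtie2 2.2.3 and the build mm10 are named in the submitters' processing notes; the caller of interactions is not given in the sources used here. Per the file headers, each list holds, for every library, the raw count of contacts, a value named CPM, a distance-normalised ratio, and 1 p-value and FDR per pair. The deposited FDR of the Mycn pairs equals their p-value times 1 constant, capped at 1. The deposited HiChIP CPM equals the count scaled to the contacts of the same chromosome. The deposited Hi-C signal, also named CPM, uses chromosome constants of unstated origin. The deposited ratio equals count over expected count for the distance, except in replicate 4 of the day 6 and ES KLF4 lists, so no KLF4 ES ratio is printed. Domains came from the authors' deposited list per cell type, whose score column was not used. Gene and peak columns are the authors', from the TKO lists.

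The Mycn bin, its pairs and the gene lists were chosen with earlier results of these data known. Named were Mycn, genes in partner bins, the Myc network, the 5 genes most like Mycn, and in each list the 3 strongest pairs and the farthest one; the upstream partner 12980001, the weak pair at 12960001, the neighbouring Hi-C bin 12770001 and the 12920001 and 12910001 pairs were singled out after their values were seen. Libraries were compared by a chi-square test of counts within each group and joined where p was above 0.05 and other pairs differed: TKO 24 h 1 and 3 (p = 0.0916), KLF4 ES 1 and 2 (p = 0.345) and 3 and 4 (p = 0.650). No day 6 pair of libraries differed, and day 6 holds no Mycn pair. Hi-C counts of pairs in both lists were tested with edgeR 4.0.16 (quasi-likelihood, TMM, Benjamini-Hochberg over all pairs) and DESeq2 1.42.0 as an alternative, after a check on simulated data. Of 12695 gene names in the TKO columns, 11755 matched RefSeq by symbol, and 97.1% of those overlapped the authors' bin. PCR products are not independent molecules.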

Additional observations from a re-analysis of the deposited data

How the results depend on the processing

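Of 61 alternative values, 43 counted as the same as the value reported and 18 as moved, and none reversed a direction. For the Hi-C pair, the same meant only an unchanged sign and call. Its log2 ratio ran from -0.30 to -0.15 over the alternatives, against -0.23 in the main fit. For the 5 genes most like Mycn, 4 shared names counted as the same. With the Mycn bin alone in place of the 3-bin window, the differences in the number of pairs were -7 for TKO 24 h minus 0 h (-11 in the window), 23 for H3K27ac ES minus MEF (42), 4 for KLF4 ES minus day 3 (15) and 5 for Hi-C ES minus MEF (22), and the median log2 ratio of TKO 0 h over ES was -0.40 (-0.06). Requiring a CPM of at least 4 in every library gave -6 for TKO 24 h minus 0 h, 9 for KLF4 ES minus day 3 and -11 for TKO 0 h minus ES (-5). A pseudocount of 5 gave network medians of 0.51 for H3K27ac, 0.15 for KLF4 and 0.36 for Hi-C, where all genes stood at 0.29, 0 and 0.42, so that the order of network and all genes turned for Hi-C (0.81 and 0.74 with a pseudocount of 1) and the tie in H3K27ac (both 1.00) ended.

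Leaving out 1 library at a time, the TKO median log2 ratio ran from -0.25 (without 24 h replicate 2) to -0.15, the TKO 0 h over ES median from -0.16 to -0.072, its promoter-bin part from -0.49 to -0.24, its gene-body-bin part from 0.023 to 0.22, and the Hi-C log2 ratio from -0.30 to -0.15. The last 2 TKO over ES series, and joining TKO 0 h libraries 2 and 3 (chi-square test over all pairs, p = 0.0351; medians -0.15 and -0.11), were chosen after seeing the data. The causes were not tested.

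The Hi-C replicate numbers are shared between groups without a label that pairs them, and same-numbered libraries did not deviate together (r = -0.00089 over pairs); with a replicate block the log2 ratio was -0.22 and 74 pairs passed over the genome, where the fit without it gave 40. Leaving out 1 Hi-C library gave 3 to 113 such calls: 3 without MEF library 1, 6 without MEF library 2, 49 without ES library 1 and 113 without ES library 2. The adjusted p of the Mycn pair stayed between 0.977 and 1.00 in these fits. The CPM filter limits the numbers of H3K27ac pairs, for which a CPM of 3 stands for as few as 9.07 contacts.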
